A study of Mus musculus with 6 samples.

Results

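A set of 10 genes of fatty acid binding, uptake, storage and adipogenic control was followed in cultured mouse muscle-derived stem/progenitor cells (MDSPCs), slowly adhering cells enriched from dissociated skeletal muscle by serial preplating. The genes are Fabp3, Fabp4, Fabp5, Fabp7, Cd36, Lpl, Plin2, Pparg, Cebpa and Cebpb, out of 21485 genes counted in every sample. They were chosen by name with earlier results of these data known, and Fabp7 was included because of its level in young population 2. The Fabp7 level there and its old against young difference are therefore given as a description without a test. There were 3 young and 3 old populations, named for the age class of the mice, all grown in the same serum-rich proliferation medium on collagen type I and profiled by droplet-based 3′ single-cell RNA sequencing. The labels used here give no age in months, sex, strain or genotype, and do not say how many animals gave a population, so a population is the replicate (n = 3 per group).

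Fatty acid-binding proteins are small cytosolic carriers that hold long-chain fatty acids and pass them to membranes, mitochondria or the nucleus. Fabp3 is the heart and muscle form, Fabp4 the adipocyte and endothelial form, Fabp5 the epidermal form and Fabp7 the brain form, known from radial glia. Cd36 is a membrane fatty acid translocase, Lpl hydrolyses triglyceride carried in lipoproteins, and Plin2 coats lipid droplets in many cell types. Pparg and Cebpa are the transcription factors that hold the adipocyte programme, and Cebpb acts before them. Skeletal muscle progenitors pass from Pax7-positive through Myod1-positive states to cells that express Myog, the transcription factor of terminal differentiation.

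Fabp3 and Fabp7 were higher, and Plin2 was lower, in cells that carried Myog RNA (values below). The 250 bases before the start site of these 3 genes are shown, 5′ to 3′ on the strand of the gene. They come from RefSeq on build GRCm38.p6, where 7 of the 10 genes have an entry. Cd36, also higher in those cells, has an entry that is not shown. The transcribed bases beside its window were not found in its GENCODE M21 transcripts. The start sites are those of RefSeq; GENCODE M21, used for gene spans, starts Fabp3 at 130308595 and Fabp7 at 57784881, inside these windows, so that the end of each window, with the Fabp3 E-box, lies within the GENCODE gene. Capitals mark each E-box, CANNTG, which is the core letter pattern of myogenic factor binding. The window of Fabp7 is chr10:57784673-57784922 on the plus strand, that of Fabp3 is chr4:130308488-130308737 on the plus strand, and that of Plin2 is chr4:86670060-86670309 on the minus strand.
Fabp7: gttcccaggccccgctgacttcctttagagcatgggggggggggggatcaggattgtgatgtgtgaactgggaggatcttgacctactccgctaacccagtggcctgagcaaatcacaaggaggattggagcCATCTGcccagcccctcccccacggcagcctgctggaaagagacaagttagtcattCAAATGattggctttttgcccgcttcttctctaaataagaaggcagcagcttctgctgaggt
Fabp3: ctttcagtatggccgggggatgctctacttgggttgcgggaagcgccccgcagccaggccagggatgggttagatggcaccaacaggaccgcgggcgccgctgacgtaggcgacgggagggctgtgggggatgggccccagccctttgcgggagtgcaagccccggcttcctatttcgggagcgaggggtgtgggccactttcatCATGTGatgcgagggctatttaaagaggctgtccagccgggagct
Plin2: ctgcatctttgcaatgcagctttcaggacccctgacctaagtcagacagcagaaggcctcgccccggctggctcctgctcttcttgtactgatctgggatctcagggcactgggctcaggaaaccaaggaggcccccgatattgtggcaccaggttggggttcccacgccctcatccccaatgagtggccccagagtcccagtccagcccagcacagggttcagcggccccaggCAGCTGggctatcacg
The Fabp7 window held 2 matches, CATCTG starting 118 bases and CAAATG starting 62 bases before the start site. The Fabp3 window held 1, CATGTG at 45 bases, and the Plin2 window held 1, CAGCTG at 16 bases. The pattern reads the same on both strands, and 66.2% of the 32851 RefSeq windows of this length held at least 1 match, so these matches describe the letters and nothing more. CAGCTG, which is a case of CANNTG, was present in 4271 of the windows.

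The 6 matrices held 61673 cells after filtering, 8674 to 12541 per population, with a median of 13001 to 19951 unique molecular identifiers (UMIs, tags that count RNA molecules) per cell and 133608357 to 193380549 UMIs per population. Levels are given as counts per 1000000 UMIs of the population (CPM). Pairs of libraries shared 23 to 35 cell barcodes. The populations differed widely in myogenic state: the 9 myogenic markers summed to 334, 2219 and 194 CPM in young populations 1, 2 and 3 and to 261, 1677 and 3712 CPM in old populations 1, 2 and 3. Pax7 was at 0.026 CPM in young population 3. The listed adipocyte markers were nearly absent: all 7 (Adipoq, Plin1, Cidec, Lep, Cfd, Retn and Slc2a4) stayed under 1 CPM in every population, with sums of 0.180 to 1.47 CPM. The 7 macrophage markers summed to 1.82 to 8.80 CPM, with Ptprc, Adgre1, Lyz2 and Fcgr1 under 1 CPM. The 10 fibro-adipogenic markers summed to 283 to 511 CPM with Lum, Dpt and Pi16 under 1 CPM. Gsn alone was 149 to 317 CPM of that sum and Col3a1 was 13.3 to 132 CPM. Cd34 was 5.61 to 119 CPM and Smoc2 1.12 to 103 CPM, and 5 of the 10 exceeded 10 CPM in at least 1 population. Pdgfra was 0.036 to 1.97 CPM and Dcn 0.25 to 1.49 CPM.

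Fabp7 was nearly confined to 1 population. It measured 0.13 CPM in young population 1, 231 CPM in young population 2 and 1.46 CPM in young population 3, against 0.18, 2.65 and 9.07 CPM in old populations 1, 2 and 3. Young population 2 stood alone, 25.5 times above the next highest, old population 3, and gave 94.8% of all Fabp7 UMIs (44664 of them), while young population 1 was the lowest of all and young population 3 lay within the range of the old ones. At 100 CPM or more in young population 2 and at 10 times or more the level of any other population there were 8 genes, Fabp7 among them, and the corresponding number was 0 to 5 genes in each of the other 5 populations. Tek, an endothelial receptor kinase, was 58.9 CPM and Ebf1, a transcription factor of early adipogenesis and of B cells, was 243 CPM in the same population, against at most 0.40 and 30.8 CPM elsewhere. The other endothelial markers listed, Pecam1 (0.34 CPM), Cdh5, Kdr, Emcn, Cldn5 and Tie1, were under 1 CPM there. The glial markers Sox10, S100b, Gfap and Foxd3 were under 1 CPM in every population.

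**Figure D1:**
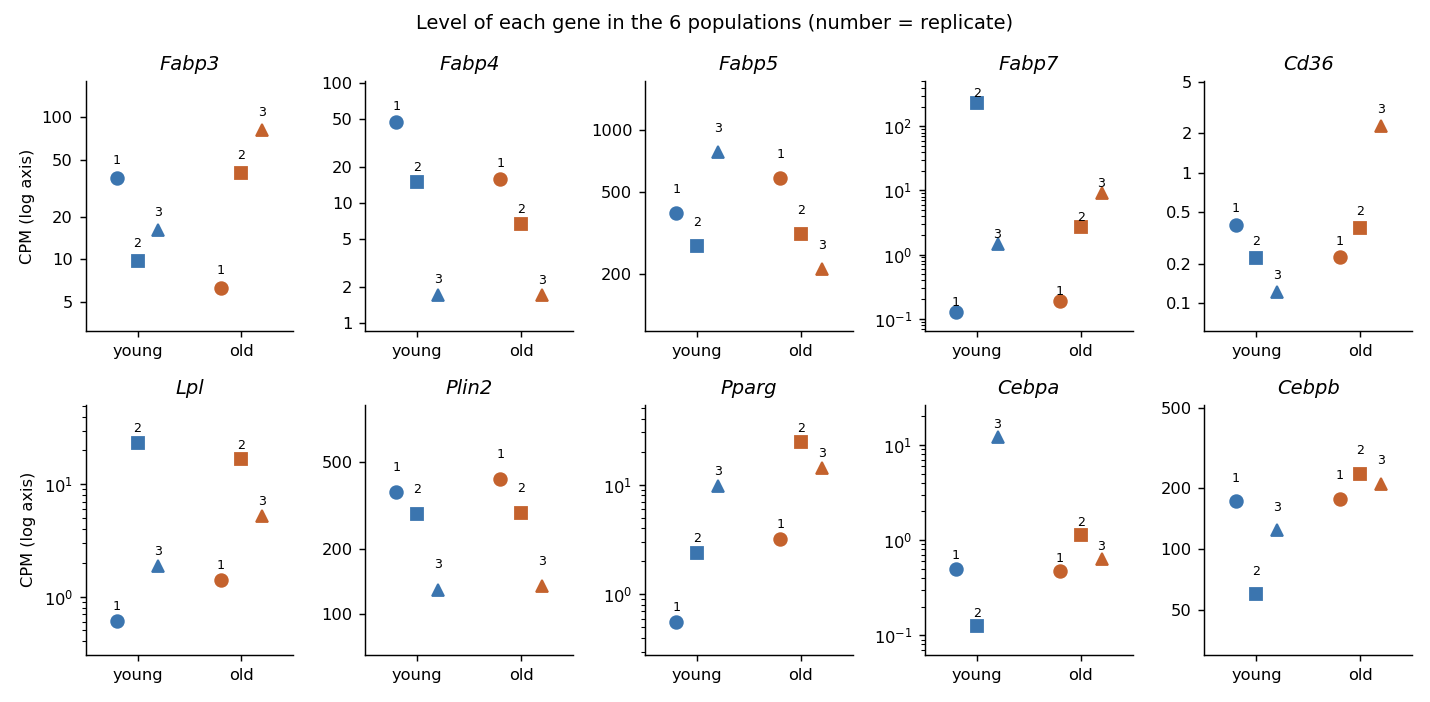
CPM (log axis) of each of the 10 genes in the 3 young (blue) and 3 old (orange) populations, 1 point per population with its replicate number. Fabp7 at 231 CPM in young population 2 lies far above all other populations, and Cebpb is the single gene whose young and old points do not overlap.

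Fabp3, the muscle form, was 37.5, 9.83 and 16.2 CPM in young populations 1, 2 and 3, against 6.28, 40.5 and 81.0 CPM in the old ones. The highest and the lowest value were both from old mice, a 12.9-fold range, and the groups overlapped. Fabp4, the adipocyte form, was 47.6, 15.002 and 1.72 CPM in young populations against 16.03, 6.68 and 1.71 CPM in the old populations. The 2 highest young values and the old ones interleaved, and the lowest values of both groups were nearly equal, so the groups overlapped. Fabp5 was 399, 275 and 790 CPM in young populations against 588, 315 and 212 CPM in the old populations. It was present in every population, and its 3.72-fold range was the narrowest of the 4 binding proteins (27.8-fold for Fabp4).

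Plin2, the droplet coat protein, was likewise present in every population, at 363, 289 and 130 CPM in young populations against 418, 291 and 134 CPM in the old ones. The groups spanned nearly the same range. Lpl was 0.61, 23.2 and 1.87 CPM in young populations against 1.41, 16.6 and 5.18 CPM in the old populations. Each group held 1 population above 10 CPM, and the groups overlapped. Cd36 was 0.40, 0.22 and 0.12 CPM in young populations against 0.22, 0.38 and 2.29 CPM in the old populations. Cd36 thus lay near the limit of measurement except in old population 3, which gave 419 of its UMIs.

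Among the transcription factors, Cebpb was 172, 59.5 and 123 CPM in young populations against 178, 237 and 211 CPM in the old populations. The lowest old value lay just above the highest young one, so the groups did not overlap. Pparg was 0.56, 2.39 and 9.79 CPM in young populations against 3.20, 24.3 and 14.3 CPM in the old populations, with young population 3 inside the range of the old ones. Cebpa was 0.50, 0.12 and 12.02 CPM in young populations against 0.47, 1.13 and 0.63 CPM in the old populations. It was thus high in young population 3 alone, which gave 82.6% of its UMIs. In old population 2, with the highest Pparg, Cebpa was 1.13 CPM, and in young population 3, with the highest Cebpa, Pparg was 9.79 CPM.

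The comparison of old with young populations is the one the study's design names. Of the 9 genes tested, none passed an adjusted p of 0.05 by quasi-likelihood F test in edgeR, adjusted by Benjamini-Hochberg over 14512 genes (adjusted p = 0.9999 for each), and DESeq2 called 0 of the 9 as well. Over all genes, 1 was called by edgeR (0.00689%), Cyba, a subunit of NADPH oxidase, 512 had an unadjusted p under 0.05, and DESeq2 called 219. The log2 fold change of old over young was 1.87 (SE 0.55, edgeR unadjusted p = 0.0161) for Pparg, the single one of the 9 with an unadjusted p under 0.05. Its sign was positive under all 13 alternative settings, but its unadjusted p was 0.146 without the feature list term, 0.0738 on the longer feature list, and 0.0740, 0.0747 and 0.0638 without young population 1, old population 1 and old population 2. The log2 fold change was 0.82 (SE 0.47) for Cebpb. Groups that did not overlap, as for Cebpb, were seen for 860 of the 14512 genes (5.93%), and 1 of 10 genes here. The 7 others lay between -1.99 (SE 1.51, Cebpa) and 1.84 (SE 1.44, Cd36), with standard errors of 0.43 to 1.51. The Cebpa value turned to 1.29 without young population 3. The Cd36 value was 0.19 without old population 3 and 3.05 without old population 1, and that of Fabp4 was -0.18 without young population 2 and -2.09 without old population 2.

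None of the 6 lists of related lipid genes held a gene called between old and young (0 of 83 genes tested). Their median log2 fold changes ran from -0.15 for fatty acid and triglyceride synthesis to 0.77 for lipid droplet and lipolysis, where the median of all genes was -0.01. G0s2, an inhibitor of triglyceride lipolysis, had a log2 fold change of 1.37 (SE 0.62, edgeR adjusted p = 0.9999).

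The share of cells with a UMI was counted after each cell was thinned to 5000 UMIs, which left out 1368 of the cells. Fabp7 had a UMI in 43.1% of cells of young population 2 (95% Wilson interval 42.1 to 44.0%), where an even spread of the same UMIs over the cells would give 73.6%. The variance of its count per cell was 5.44 times the mean there, and 58.4% of its UMIs were in the 10% of cells with the most. In the other populations 0.071% to 4.35% of cells had a Fabp7 UMI. In old population 3 that was 4.35% (95% Wilson interval 4.00 to 4.72%) against 4.76% for an even spread, a small shortfall beside that of young population 2. Without thinning, 64.9% of cells of young population 2 had one. Barcodes under 1000 UMIs in that library gave 9 Fabp7 UMIs (78.2 CPM), and free RNA was not measured, since no cell class known to lack Fabp7 was present.

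Fabp3 was most uneven in old population 3. It had a UMI in 13.4% of cells against 29.9% for an even spread, with a variance 6.10 times the mean there, while in old population 1 it had a UMI in 2.82% of cells against 3.04%. Fabp5 had a UMI in 53.1% to 91.6% of cells, Plin2 in 43.2% to 79.2% and Cebpb in 23.7% to 63.5%. Fabp4 had one in 17.0% of cells of young population 1 and in 0.62% to 6.78% elsewhere. Lpl reached 10.1% in young population 2, Pparg 10.9% in old population 2 and Cebpa 5.59% in young population 3. Cd36 had a UMI in 0.075% to 0.87% of cells, the highest share being that of old population 3, where an even spread would give 1.09%. All these intervals and shares cover counting error only.

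**Figure D2:**
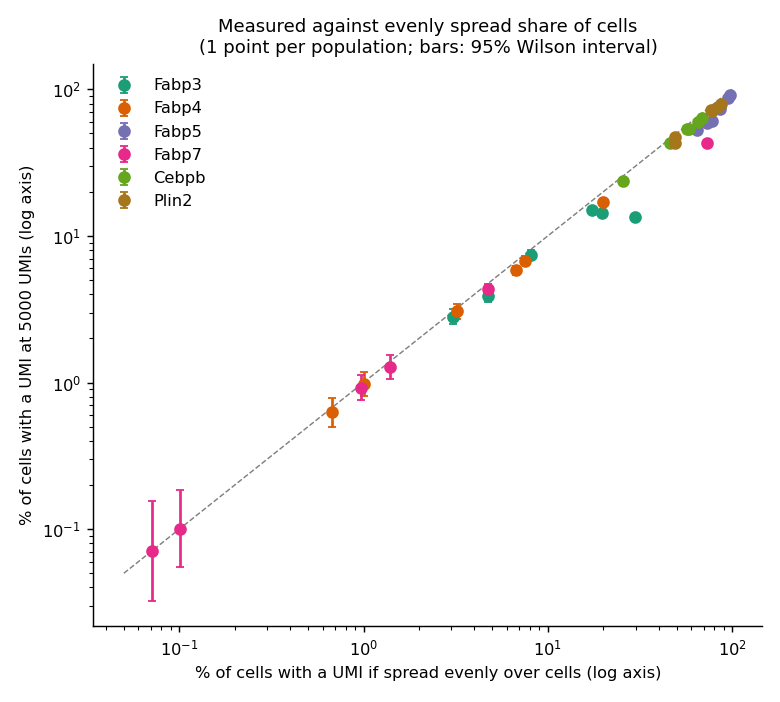
Share of cells with at least 1 UMI at 5000 UMIs per cell (y, %, log axis, with 95% Wilson intervals) against the share that an even spread of the same UMIs would give (x, %, log axis), 1 point per population for 6 of the genes. A point below the dashed line is less evenly spread over cells; Fabp7 in young population 2 (43.1% against 73.6%) and Fabp3 in old population 3 (13.4% against 29.9%) lie farthest below it.

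Within each population, cells with 1 or more Myog UMI were compared with cells with none. This contrast was made inside every sample, so differences between populations drop out. Fabp3, Cd36 and Fabp7 rose in Myog-positive cells and Fabp4, Fabp5 and Plin2 fell, while Pparg, Cebpa, Cebpb and Lpl did not pass the test. Thus 3 of the 10 genes were called higher, where 15.3% of 13558 genes tested were, and 3 were called lower, where 20.8% of genes were. The Myog-positive classes held 77 to 5562 cells and the Myog-negative ones 6606 to 10082. Myog itself made the classes and is no result.

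Fabp3 was 110, 27.3 and 35.8 CPM in Myog-positive cells of young populations 1, 2 and 3 and 47.5, 107 and 151 CPM in those of old populations 1, 2 and 3. In Myog-negative cells of the same populations it was 35.3, 5.46 and 15.2 CPM and 6.00, 28.8 and 19.4 CPM. It was higher in all 6 populations, 2.35 to 7.92 times, and the log2 fold change was 2.17 (SE 0.28, edgeR adjusted p = 0.00255). The level rose with the amount of Myog: in old population 3 it went from 19.4 CPM with no Myog UMI to 40.4 with 1, 109 with 2 to 4 and 210 with 5 or more. It rose at each of these 3 steps in 5 of 6 populations, the exception being old population 1, where 9 and 27 cells made up the last 2 classes.

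Fabp7 was 522 CPM in Myog-positive and 159 CPM in Myog-negative cells of young population 2. There it climbed to 288 CPM with 1 Myog UMI, 445 CPM with 2 to 4 and 706 CPM with 5 or more. Fabp7 rose at each of these 3 steps in only 2 of 6 populations. In old population 2 it went from 2.63 CPM with no Myog UMI to 2.11 CPM with 1. Even Myog-negative cells of young population 2 carried more Fabp7 than Myog-positive cells of any other population. Of those Myog-negative cells, the ones with a Pax7, Myf5 or Myod1 UMI were at 161 CPM and the ones without were at 146 CPM. In the other populations the pairs of values were 0.74 and 0.11 CPM (young 1), 4.34 and 1.31 CPM (young 3), 2.75 and 2.63 CPM (old 2) and 10.8 and 7.47 CPM (old 3). In old population 1 no Fabp7 UMI was counted in Myog-positive cells, which allows up to 2.79 CPM, against 0.19 CPM in the rest. The fold was thus above 1 in 5 of 6 populations, with old population 2 close to 1 and young population 1 resting on 3 UMIs, and the log2 fold change was 1.10 (SE 0.30, edgeR adjusted p = 0.0301). This call was lost without young population 2 (adjusted p = 0.0663), without young population 3 (0.0781) or without old population 3 (0.0521), with log2 fold changes of 0.83, 0.97 and 1.29.

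Cd36, the fatty acid translocase, was 9.81, 0.63 and 2.00 CPM in Myog-positive cells of the young populations and 5.59, 1.07 and 4.45 CPM in those of the old ones. In Myog-negative cells it was between 0.028 and 0.40 CPM in all populations. It was higher in 6 of 6 populations, with a log2 fold change of 4.02 (SE 0.66, edgeR adjusted p = 0.00413), on counts of 6 to 374 UMIs per Myog-positive class.

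Fabp4 moved the opposite way. It was 17.2, 6.61 and 1.22 CPM in Myog-positive cells of the young populations and 0, 3.01 and 1.11 CPM in those of the old ones, against 48.5, 17.1 and 1.74 CPM and 16.1, 7.28 and 2.22 CPM in Myog-negative cells. It was lower in 6 of 6 populations, and in old population 1 the count of 0 allows up to 2.79 CPM. The log2 fold change was -1.28 (SE 0.24, edgeR adjusted p = 0.00581).

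Fabp5 was 168, 155 and 607 CPM in Myog-positive cells of the young populations and 277, 129 and 189 CPM in those of the old ones. In Myog-negative cells it was 407, 304 and 799 CPM and 591, 347 and 232 CPM. The fall was seen in 6 of 6 populations, to between 0.371 and 0.817 of the Myog-negative level, with a log2 fold change of -0.88 (SE 0.17, edgeR adjusted p = 0.00857). Plin2 fell to between 0.479 and 0.914 of the Myog-negative level in the 6 populations (log2 fold change -0.71, SE 0.13, edgeR adjusted p = 0.0047). At 5 or more Myog UMIs Plin2 was 55.3 to 157 CPM, against 130 to 420 CPM with none. Both Fabp5 and Plin2 fell at each step of Myog in 5 of 6 populations.

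**Figure D3:**
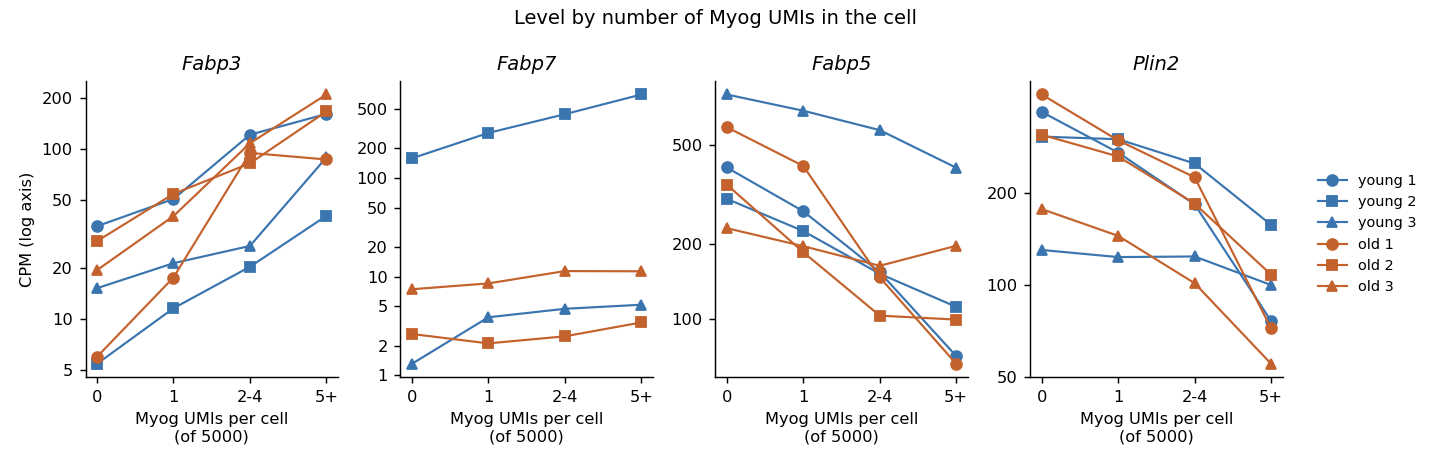
CPM (y, log axis) of Fabp3, Fabp7, Fabp5 and Plin2 in cells with 0, 1, 2 to 4 and 5 or more Myog UMIs after thinning to 5000 UMIs (x), 1 line per population (blue young, orange old). Fabp3 climbs in every population from 0 to 5 or more Myog UMIs, and Fabp5 and Plin2 fall. Fabp7 climbs from 159 to 706 CPM in young population 2, and it rose at each step in 2 of 6 populations. Populations with under 100 Fabp7 UMIs in all (young 1 and old 1) are not drawn for that gene.

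The factors of the adipogenic programme and Lpl showed no called difference by state. The log2 fold change was 0.18 (SE 0.19) for Pparg, -0.16 (SE 0.24) for Cebpa, -0.20 (SE 0.12) for Cebpb and 0.46 (SE 0.23, edgeR adjusted p = 0.143) for Lpl. Pparg was higher in Myog-positive cells in 3 of 6 populations and lower in the other 3. In old population 2, where it was highest, it was 19.3 CPM in Myog-positive and 25.2 CPM in Myog-negative cells.

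**Figure D4:**
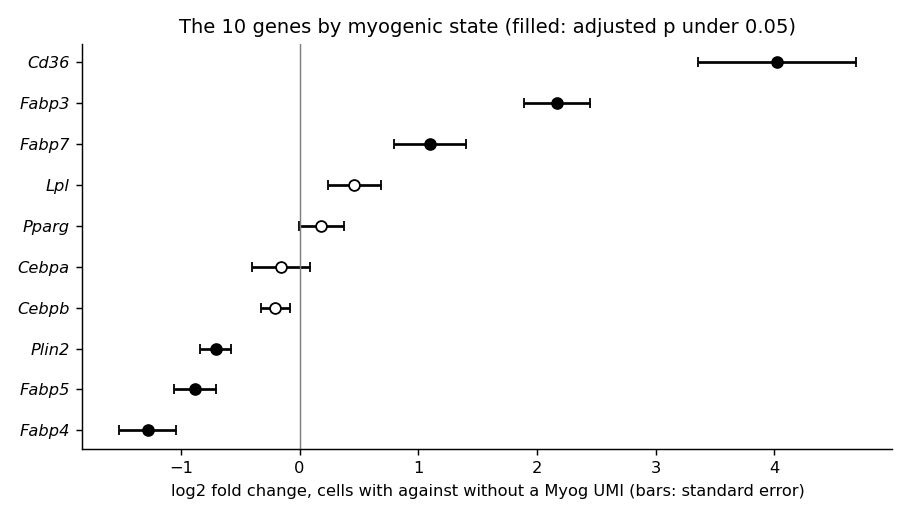
Log2 fold change of each gene in cells with against cells without a Myog UMI (x, points, with bars of 1 standard error), fitted over the 6 populations. Cd36, Fabp3 and Fabp7 lie to the right of 0 and Plin2, Fabp5 and Fabp4 to the left with adjusted p under 0.05 (filled); Lpl, Pparg, Cebpa and Cebpb (open) did not pass.

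Cell cycle and depth moved with these classes. Of Myog-positive cells 11.8% to 67.4% scored as S or G2/M, against 41.8% to 78.6% of Myog-negative cells, and the share was lower in every population. The class medians were 10968 to 20183 and 13168 to 19751 UMIs. Within a population the Myog-positive median was the lower one, except in old population 2 (20183 against 19751 UMIs). Among cells scored as G1 the same 6 genes were called: the log2 fold change was 2.09 for Fabp3, 3.99 for Cd36, 0.88 for Fabp7 (edgeR adjusted p = 0.045), -1.65 for Fabp4, -0.94 for Fabp5 and -0.99 for Plin2. Doublets were not called. Without the deepest 10% of cells of each population 6 of the 10 genes were again called. Cycling cells, with no test made, had more Fabp5 than the rest in 6 of 6 populations (1.35 to 2.43 times) and less Fabp3 in 6 of 6 (0.204 to 0.576 of the level in non-cycling cells). Plin2 was slightly lower in cycling cells in 6 of 6 populations (0.736 to 0.949 of the level in the rest).

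The difference between cell states was not called as unequal in old and young populations for any gene (0%, 0 of 13558 genes by edgeR, with 387 at an unadjusted p under 0.05 and 3 called by DESeq2). For Fabp7 the log2 difference of the state effects, old minus young, was -1.43. It is given as a description without a test, since Fabp7 was included for its level in young population 2. The ratio of Myog-positive to Myog-negative cells was 3.28 and 3.31 in young populations 2 and 3 and 1.05 and 1.44 in old populations 2 and 3. Young population 1 had 3 and old population 1 had 0 Fabp7 UMIs in Myog-positive cells, too few to place their ratios. For Fabp3 the difference was 0.88 (SE 0.43, edgeR adjusted p = 0.9999).

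The genes whose counts ran most nearly parallel to each gene over cells were found by within-population correlation of thinned counts, a description in which the cells share their library and the genes their cell state. For Fabp7, over the cells of young population 2, they were the contractile genes Tnnt1 (r = 0.44), Myl1 (0.39), Tpm1 (0.38) and Acta2 (0.38) and the factor Myog (0.37), out of 5374 genes compared. For Fabp3, over the 3 populations where 10% or more of cells had a UMI, they were the muscle genes Tnnt2 (mean r = 0.29), Cryab (0.28), Cavin4 (0.26), Ttn (0.25) and Tpm2 (0.25). For Fabp5, over all 6 populations, they were Ptma (0.33), H2afz (0.30), Npm1 (0.30), Ranbp1 (0.28) and Eif5a (0.26), genes of chromatin, ribosome assembly, nuclear transport and translation. Plin2 ran with Ftl1 (0.19), Ifitm3 (0.16), Ctsl (0.15), Spp1 (0.15) and S100a6 (0.15), and Fabp4, in young population 1, with Ifitm3 (0.14), S100a4 (0.13), Tm4sf1 (0.12), Fabp5 (0.11) and S100a11 (0.11). For Cebpb, Lpl and Pparg the highest values were 0.10, 0.06 and 0.07, too weak to read.

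Lists of related lipid genes are given for the same contrast of cell states, each beside the 15.3% of all genes called higher and the 20.8% called lower; no list was tested against other genes or against another list. Among 19 genes of fatty acid oxidation, 8 (42.1%) were higher and 1 (5.26%) lower in Myog-positive cells. Their median log2 fold change was 0.25, against -0.06 over all genes. Among those higher were Acadl (0.54, SE 0.05, edgeR adjusted p = 0.000288), Acadvl, Hadha, Hadhb (0.40), Etfa, Etfb (0.33) and Ucp2 (1.83, SE 0.51); Cpt1c, a brain form of the carnitine transferase, was lower (-0.59). Acadl and Acadvl open the mitochondrial oxidation of fatty acyl chains, Hadha and Hadhb are the trifunctional enzyme, and Etfa and Etfb pass the electrons on. Ucp2 is a carrier of the inner mitochondrial membrane.

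Among 16 tested genes of fatty acid and triglyceride synthesis, 9 (56.2%, against 20.8% of all genes) were lower and 2 (12.5%, against 15.3%) higher, with a median of -0.27. Acly, Acaca and Fasn, which make the chains, the elongases Elovl5 and Elovl6 (-0.83, SE 0.11, edgeR adjusted p = 0.00127), the desaturases Fads1 (-0.70) and Fads2 (-0.79), Agpat2 and Me1 (-0.18) were lower. The 2 that rose, Gpam (0.74) and Dgat2, act at the first and the last step of triglyceride assembly. Scd2, the listed desaturase with the highest level, did not pass (-0.03, SE 0.12). Among 13 genes of uptake and activation 3 (23.1%) rose and 4 (30.8%) fell, not far from the 15.3% and 20.8% of all genes. Acsl3, an acyl-CoA synthetase of lipid droplets, rose by 1.22 (SE 0.20, edgeR adjusted p = 0.0043), Acsl4 by 0.28 and Lmf1, which matures lipases, by 0.47, while the transporter Slc27a1 (-0.50), the synthetase Acsl5 (-0.46), the lipase inhibitor Angptl4 (-0.49) and the receptor Lrp1 (-0.44) were lower.

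**Figure D5:**
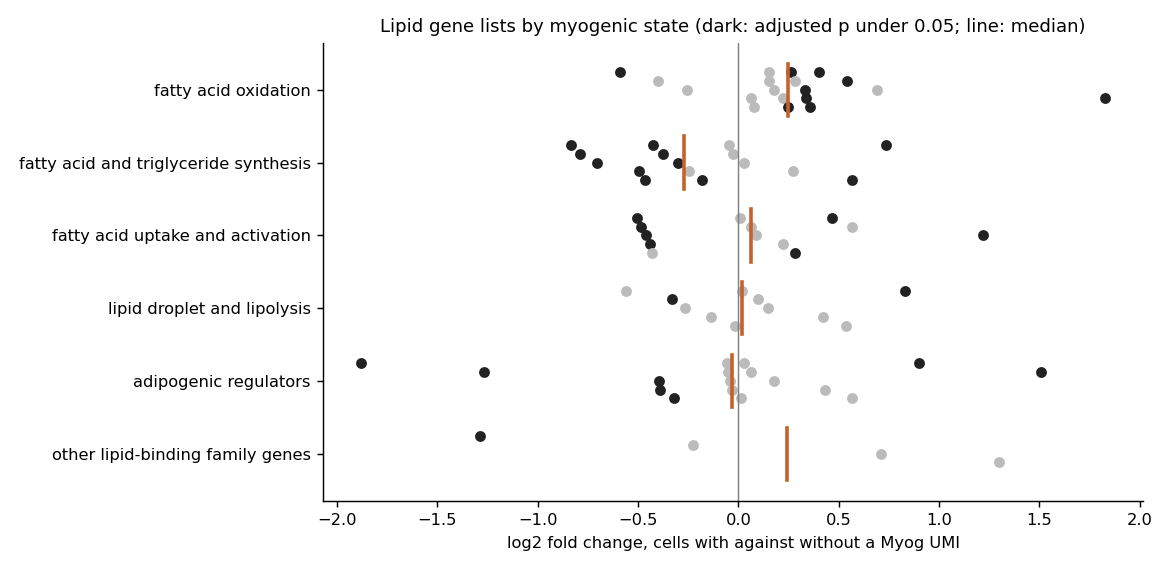
Log2 fold change in cells with against cells without a Myog UMI (x) of each tested gene of 6 lipid gene lists (rows); dark points have an adjusted p under 0.05 and the orange line is the list's median. Oxidation genes lie mostly right of 0 (8 higher, 1 lower) and synthesis genes mostly left (2 higher, 9 lower).

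Of 17 tested adipogenic regulators, 2 (11.8%) rose and 5 (29.4%) fell, shares close to the 15.3% and 20.8% of all genes. Klf5 rose by 1.51 (SE 0.20, edgeR adjusted p = 0.00197) and Ppargc1b, a coactivator of mitochondrial genes, by 0.90, while the early adipogenic factors Ebf1 (-1.27, SE 0.17, edgeR adjusted p = 0.00163) and Ebf2 (-1.88) were lower, as were Ppard (-0.39), Klf4 (-0.40) and Gata2 (-0.32). Of 11 droplet and lipolysis genes fewer than that share passed in each direction (9.09%): 1 rose, Fitm2 (0.83), which partitions lipid into droplets, and 1 fell, Hilpda (-0.33), a lipase inhibitor. Of 4 tested carriers of the same family 0 rose and 1 (25%, near the 20.8% of all genes) fell. This was Crabp1 (-1.29, SE 0.43, edgeR adjusted p = 0.0406), a retinoic acid carrier with 8 to 50 UMIs (0.041 to 0.26 CPM) per population. Of 2 adipocyte markers tested, 1 rose (50%, against 15.3% of all genes), too few genes to compare shares. It was Slc2a4 (2.55, SE 0.42, edgeR adjusted p = 0.00247), with 3 to 102 UMIs and at most 0.56 CPM in any population. Plin1 was not called. Of 7 fibro-adipogenic markers tested, 0 rose and 3 (42.9%, against 20.8% of all genes) fell. These were Pdgfra (-1.21, at most 1.97 CPM in any population), Cd34 (-1.04) and Smoc2 (-0.96). The other 4 were not called, among them the 2 of highest level, Gsn (-0.21, edgeR adjusted p = 0.334) and Col3a1 (-0.11, edgeR adjusted p = 0.649). Their part in the lower Fabp4, Fabp5 and Plin2 of Myog-positive cells was not tested.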

How the data were processed

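Raw UMI counts per gene and cell barcode were deposited by the authors for 6 populations, with Cell Ranger 7.0.0 (young 1 and old 1, 21849 features) or 7.2.0 (the other 4, 32285 features) named per the file headers. The submitters' processing notes name Cell Ranger 7.2.0, Seurat 5.134 and build mm10. The treatment of intronic reads is not given in the sources used here, so genes that overlap (Fabp3 with Zcchc17, Cebpb with Tmem189) are not resolved further. The 21485 identifiers shared by both feature lists were used.

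Cells with 1000 or more UMIs, 500 or more genes and under 15% mitochondrial UMIs were kept. Counts were summed per population, or per population and cell class, and fitted with edgeR 4.0.16 (quasi-likelihood, TMM, filterByExpr, two-sided, Benjamini-Hochberg threshold 0.05) in R 4.3.3, with the feature list (old against young) or the population (cell states) as a term. All 10 genes passed the filter on low counts in both fits. Cells were classed after thinning to 5000 UMIs and scored for phase with scanpy 1.11.5 on 43 S and 52 G2/M genes. The edgeR fits of old against young and of cell states were tested on simulated counts first. The fit of the state difference by age was not. DESeq2 1.42.0, other scalings, cell filters and leaving out each population were the alternatives. The labels do not say that replicates came from separate animals, so p-values measure the spread between these populations.

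The genes and lists were chosen with earlier results of these data known. Named from each list were up to 4 called genes of largest change and the 2 of highest level; Acadvl, Hadha, Etfa, Acly, Acaca, Fasn, Elovl5, Agpat2, Dgat2, Acsl4, Acsl5, Ppard, Klf4 and Gata2 were named after their values were seen, to complete counts, and Tek and Cyba were named likewise. A few listed genes are not reported here by name.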

Additional observations from a re-analysis of the deposited data

How the results depend on the processing

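The number of genes called between old and young was 1, against 0 without the feature list term, 219 by DESeq2, 0 with the 4 populations on the longer list and 0 to 3 with 1 population left out (0 without young population 1 or old population 1, 3 without young population 3); none of the 9 genes tested was called under any of the 13 alternatives. Correlations of deviations were 0.378, 0.224 and -0.0814 for the same replicate number and -0.408 to 0.276 for different numbers. The highest was that of young 1 and old 1, which share the shorter feature list. Whether the numbers pair the populations was not tested. With the replicate block 1 gene was called, 0 of the 9. Directions between old and young turned for 5 genes, all without a call. Leaving out 1 population gave log2 fold changes of -0.28 to 2.33 for Fabp3 (negative without young 2), -0.93 to 0.033 for Fabp5 (positive without young 3), -2.69 to 1.29 for Cebpa (positive without young 3), -0.38 to 0.36 for Plin2 and -0.36 to 1.81 for Lpl. The sign held but the size did not for Cd36 (0.19 to 3.05), Fabp4 (-2.09 to -0.18) and Cebpb (0.38 to 1.37), while Pparg ran from 1.49 to 2.62. Plin2 was 0.0027 with the replicate block and 0.039 on the longer list, and Lpl was -0.18 without the list term and -0.22 on the longer list. In the comparison of cell states 5 or 6 of the 10 genes were called under each of the 13 alternatives, 5 without young 3 or old 3. Fabp3, Fabp4, Fabp5, Plin2 and Cd36 kept direction and call in all 13, with log2 fold changes of 1.86 to 2.63, -1.65 to -0.89, -1.34 to -0.67, -1.07 to -0.53 and 3.49 to 4.59. Cebpb passed without young 2 (-0.32, edgeR adjusted p = 0.0278, range over alternatives 0.0278 to 0.509). Pparg by state was -0.037 to 0.33 with 1 population left out and Cebpa was 0.048 when cells were classed on all UMIs. The number of genes whose state effect differed by age was 3 with DESeq2 and 0 to 1 with 1 population left out (1 without young 1 or old 1). Of 60 shares of cells with a UMI, 59 rose beyond their interval when all UMIs of a cell were used. The thinned UMIs are a part of all UMIs of a cell, so the share in those cells could not fall. That count is therefore no test of the shares. For the other differences, where no other value is given, the cause was not tested. Depth limits Cd36, Cebpa and Fabp7 outside young population 2, where 17 to 1657 Fabp7 UMIs stood for a whole population.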

Other observations

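Neighbouring genes were read on build GRCm38 within 250 kb. Fabp7 (chromosome 10, 57784881 to 57788450, plus strand) has 2 neighbours counted in all samples. Smpdl3a, 5.9 kb away, was 3.69, 16.6 and 2.40 CPM in young populations 1, 2 and 3 and 1.80, 6.10 and 8.54 CPM in the old ones, so its highest value was also that of young population 2. Pkib, 43.8 kb away, was at most 1.53 CPM. Fabp4 and Fabp5 lie 187.5 kb apart on chromosome 3 with Fabp9, Fabp12 and Pmp2 nearby, and these last 3 were at or under 0.22 CPM in every population, where Fabp5 was 212 to 790 CPM.

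Over genes of a chromosome, the median log2 level relative to the other populations was shifted for some of the chromosomes that hold the 10 genes. It was 0.385 higher on chromosome 6 (Pparg) in young population 3, 0.235 on chromosome 5 (Cd36) in old population 2, and 0.185 on chromosome 4 (Fabp3, Plin2) in young population 2; chromosome 10 (Fabp7) in young population 2 was at 0.0052.

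In young population 2, 290 cells carried both a Fabp3 and a Fabp7 UMI where an independent spread gives 178 from the 413 and 4584 cells with each, while in old population 3, next in Fabp7, 49 carried both where it gives 70.8. In young population 2, 203 carried both Fabp4 and Fabp7 where it gives 267. There Fabp7 and Lpl met in 462 cells where an independent spread gives 463, and Fabp7 and Pax7 in 1097 where it gives 1092.

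Transcripts near-identical to Fabp5 (98.3% over 409 bases and 97.3% over 408 bases, from 2 processed copies) and to Fabp3 (99.3% over 402 bases, from Fabp3-ps1) exist in GENCODE, and none of these 3 is among the shared identifiers. How reads that match both were treated is not given in the sources used here, so the levels of Fabp3 and Fabp5 are uncertain to that extent.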
